A study of Mus musculus with 9 samples.

Results

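Messenger RNA of 10 markers and regulators of intestinal stem cells was examined in colonic intestinal epithelial cells (IECs) of mice that had lost SMAD4, with or without SETD2, during chemically induced colitis. The markers were *Lgr5*, *Ascl2*, *Smoc2*, *Tnfrsf19*, *Lrig1*, *Sox9*, *Axin2*, *Rnf43*, *Znrf3* and *Olfm4*. They were taken by their symbols from a count table of 46095 symbols, and all 10 were present and passed the filter on low counts, as did 14593 genes in all. *Olfm4* marks stem cells of the small intestine in mice and hardly any colon cells, and was therefore kept apart from the other 9.

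The libraries came from 4 *Smad4*Vil-KO mice and 5 *Smad4*Vil-KO;*Setd2*Vil-KO mice, 1 library each. In both genotypes *Villin-Cre* removed floxed *Smad4* from the intestinal epithelium, and in the double knockout it also removed floxed *Setd2*, on the C57BL/6J background. Every mouse had received azoxymethane (AOM) at 10 mg/kg at 8 weeks of age and 2% dextran sodium sulphate (DSS), and IECs were released from the colon with EDTA on day 10 of the AOM/DSS regimen. The comparison therefore asks what loss of SETD2 added on a SMAD4-null, carcinogen-treated and inflamed background. Mice with intact *Smad4* and untreated mice were not analysed here.

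Stem cells at the base of the crypt renew the gut lining, and they are held in that state by Wnt ligands and R-spondins. R-spondins bind LGR receptors and thereby protect Frizzled, the Wnt receptor, from removal by the ubiquitin ligases RNF43 and ZNRF3. Stabilised beta-catenin then enters the nucleus and, with TCF/LEF factors, switches on *Lgr5*, *Ascl2* and the brakes *Axin2*, *Rnf43* and *Znrf3*. SMAD4 carries TGF-beta and BMP signals that favour differentiation, and SETD2 places the H3K36me3 mark on transcribed gene bodies.

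Library totals were 12487129 to 17120202 counts, so that 1 count stood for 0.0594 to 0.0794 CPM, the share of a library scaled with TMM factors that adjust for its composition. *Setd2* was measured at 118, 120.1, 99.2 and 114 CPM in the *Smad4*Vil-KO libraries and at 57.8, 87.1, 55.7, 53.9 and 76.1 CPM in the double knockouts. It was lower in every double knockout (log2 fold change -0.77 ± 0.14 SE, adjusted p = 0.00756). *Smad4*, deleted in both genotypes, was at 64.2 ± 19.0 and 70.3 ± 34.4 CPM (SD; n = 4 and 5). Counts over whole genes do not resolve the deleted exons. Double knockout replicates 1, 2 and 5 held 3857 to 4907 Y-linked counts (*Uty*, *Kdm5d*, *Ddx3y* and *Eif2s3y* together), and the other 6 libraries held 0 to 28. *Xist*, the RNA of the inactive X chromosome, had 5 or 6 counts in these 3 libraries and 17833 to 26617 in the other 6. All 3 were double knockouts, so sex and genotype were partly confounded. Estimates in the 6 libraries without Y-linked counts are given for *Lgr5*, *Axin2*, *Znrf3* and *Olfm4*. The 8 epithelial markers summed to 12451 to 14306 CPM in *Smad4*Vil-KO and 11584 to 13752 CPM in double knockout libraries. Leukocyte markers summed to 57.7 to 155 and 51.5 to 108 CPM, fibroblast markers to 19.9 to 36.6 and 26.6 to 75.5 CPM, and smooth muscle markers to at most 3.62 CPM. None of 5 fibroblast and 8 leukocyte markers tested passed with edgeR. However, 3 fibroblast markers were higher at an unadjusted p under 0.05 (edgeR), beside 15.3% of all genes. DESeq2 called 1, beside 10% of all genes called higher and 9.13% called lower.

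Promoter sequence was compared with the pattern of the members, since TCF/LEF factors read a short core, CTTTGA, which appears as TCAAAG when it lies on the other strand. RefSeq windows (GRCm38.p6) of 250 bases before to 50 bases after the start site were found for 6 of the 10 members, with 2 start sites each for *Tnfrsf19* and *Rnf43*. The core was counted on both strands, and the longer CTTTGAT contains it. Stretches of 120 bases are shown for *Tnfrsf19*, the member with the most negative estimate, *Olfm4*, with the most positive, and the Wnt feedback gene *Axin2*. Capitals mark the core. They lie at chr14:61038118-61038237 on the minus strand for *Tnfrsf19*, chr14:80000182-80000301 on the plus strand for *Olfm4*, and chr11:108920229-108920348 on the plus strand for *Axin2*.
Tnfrsf19: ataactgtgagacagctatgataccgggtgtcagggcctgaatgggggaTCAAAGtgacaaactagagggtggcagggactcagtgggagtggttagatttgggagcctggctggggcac
Olfm4: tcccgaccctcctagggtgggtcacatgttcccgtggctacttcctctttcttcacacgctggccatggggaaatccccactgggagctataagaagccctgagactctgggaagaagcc
Axin2: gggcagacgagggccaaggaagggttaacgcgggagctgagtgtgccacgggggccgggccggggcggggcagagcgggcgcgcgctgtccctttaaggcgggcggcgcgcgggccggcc
The 1 match in the 8 windows lay 201 bases upstream of the inner *Tnfrsf19* start site and was also a match to CTTTGAT. The core was present in 16% of 32851 RefSeq promoter windows of this length and CTTTGAT in 3.73%. The windows of *Olfm4*, *Axin2*, *Ascl2*, *Lrig1* and *Rnf43* did not contain these letters.

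The members spanned a wide range of levels. Per kilobase of annotated exon, *Smad4*Vil-KO IECs held most *Lrig1* (36.5 ± 2.69 CPM per kb, SD, n = 4), a transmembrane protein that damps ErbB receptors, followed by *Sox9* (18.1 ± 0.932) and *Smoc2* (14.9 ± 3.39). *Axin2* stood at 7.05 ± 0.609, *Lgr5* at 3.58 ± 1.31, *Ascl2* at 2.45 ± 0.459 and *Znrf3* at 2.17 ± 0.236 CPM per kb. The lowest were *Tnfrsf19* (0.774 ± 0.248), *Olfm4* (0.501 ± 0.367) and *Rnf43* (0.398 ± 0.149). *Lrig1*, *Smoc2*, *Axin2* and *Znrf3* did not overlap with the next lower gene in this order in any library, whereas *Sox9* and *Smoc2* overlapped, as did *Lgr5*, *Ascl2* and *Znrf3* among themselves and the lowest 3 among themselves. In double knockout IECs *Olfm4* stood at 17.9 ± 14.5 CPM per kb (n = 5), between *Lrig1* at 32.8 ± 2.40 and *Smoc2* at 13.3 ± 2.12, and its range of 1.82 to 33.0 covered those of both *Smoc2* and *Axin2*.

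**Figure D1:**
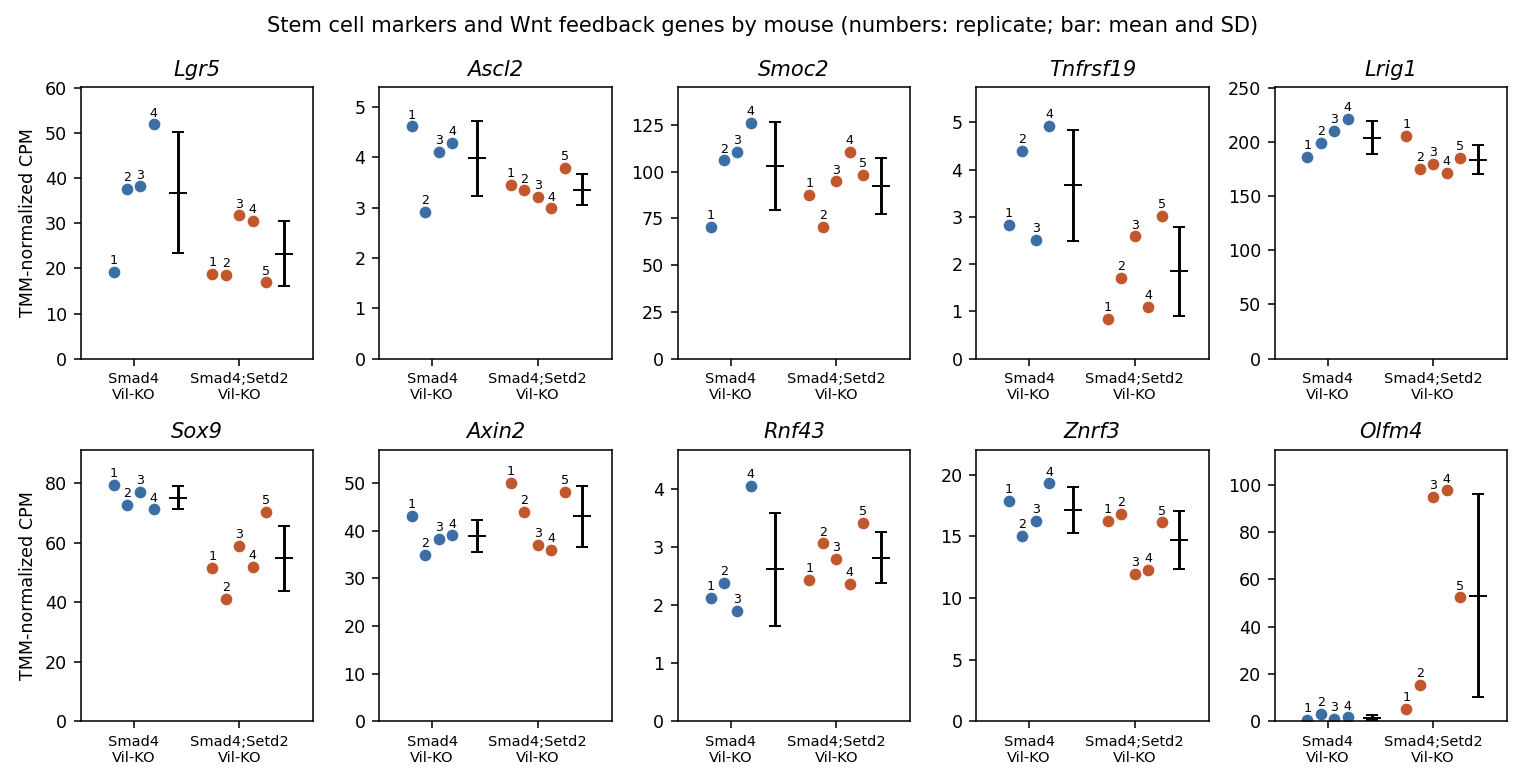
TMM-normalized CPM of each of the 10 genes (vertical axis, starting at 0) in every mouse, with the replicate number above each point and the mean and SD of each genotype as a bar. *Sox9* and *Olfm4* are the genes whose 4 *Smad4*Vil-KO and 5 double knockout points do not overlap.

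Among the 6 crypt base markers, transcripts were lower on average in the double knockout for all 6, and 1, *Sox9*, passed the test, while none of the 9 members apart from *Olfm4* rose. Across all genes tested, 6.54% were called lower and 6.76% higher at a Benjamini-Hochberg adjusted p under 0.05 (edgeR quasi-likelihood test), so that 1 call among 9 is not a result about the list. With the looser call of an unadjusted p under 0.05 and a fold above 1.5, 2 of the 9 (*Lgr5* and *Tnfrsf19*) were lower, beside 6.24% of all genes, and at an adjusted p under 0.1 the count was 1 beside 10.6%. At an unadjusted p under 0.05, 3 of the 9 were lower (*Lgr5*, *Tnfrsf19* and *Sox9*) and 0 higher, beside 15.3% of all genes in each direction. DESeq2 and limma-voom each called 1 of the 9 lower and 0 higher, beside 9.13% and 10.5% of all genes lower. The median log2 fold change, double knockout over *Smad4*Vil-KO, was -0.35 over the 6 markers and -0.22 over the 9 members, beside -0.00 over all genes. Summed over the 9 members, the level was 426, 475, 499 and 542 CPM in *Smad4*Vil-KO libraries and 437, 374, 423, 419 and 445 CPM in double knockouts. In these bulk libraries, fewer cells of a type and less RNA per cell cannot be told apart.

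*Lgr5* (chr10:115450311-115587780, minus strand, GRCm38), which encodes the R-spondin receptor that defines crypt base columnar stem cells, was measured at 19.2, 37.7, 38.2 and 51.9 CPM in *Smad4*Vil-KO IECs. The double knockouts held 18.8, 18.5, 31.7, 30.5 and 16.9 CPM. *Smad4*Vil-KO replicates 2, 3 and 4 lay above every double knockout, and replicate 1 lay among them. The means were 36.8 ± 13.4 and 23.3 ± 7.20 CPM (SD), and the log2 fold change was -0.66 ± 0.28 (SE; 95% interval -1.26 to -0.05). The unadjusted p was 0.0367 and the adjusted p 0.136, so *Lgr5* did not pass (edgeR, Benjamini-Hochberg). Without *Smad4*Vil-KO replicate 1 the log2 fold change was -0.86 (adjusted p = 0.0538). In the 6 libraries without Y-linked counts it was -0.23 (adjusted p = 0.611).

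*Ascl2* (chr7:142966829-142969264, minus strand), the transcription factor that sets stem cell identity with beta-catenin, was low in all mice. It stood at 4.62, 2.91, 4.11 and 4.29 CPM in *Smad4*Vil-KO and at 3.46, 3.34, 3.22, 2.99 and 3.80 CPM in double knockout IECs. *Smad4*Vil-KO replicate 2 lay below all double knockouts and the other 3 above all of them. An estimate of -0.24 ± 0.20 on the log2 scale (95% interval -0.67 to 0.19) did not pass the test (adjusted p = 0.429).

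*Smoc2* (chr17:14279506-14404790, plus strand), which encodes a secreted matrix-associated calcium-binding protein enriched in Lgr5+ cells, held 70.4, 106, 111 and 126 CPM in *Smad4*Vil-KO IECs. In double knockouts it held 87.7, 70.6, 94.8, 111 and 98.3 CPM. The ranges nearly coincided at their lower ends, and the log2 fold change was -0.16 ± 0.17 (95% interval -0.53 to 0.21, adjusted p = 0.541). *Lrig1* (chr6:94604529-94700158, minus strand) varied by 7.37% and 7.32% of its mean (SD) within the genotypes, at 186, 199, 210 and 221 CPM and, in double knockouts, at 206, 175, 180, 171 and 185 CPM. Only double knockout replicate 1 reached into the *Smad4*Vil-KO range. Its log2 fold change was -0.15 ± 0.08 (95% interval -0.33 to 0.02, adjusted p = 0.222). Of its exon bases, 2.58% are shared with *Slc25a26* on the opposite strand.

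*Tnfrsf19* (chr14:60963875-61046490, minus strand), also called Troy, encodes a TNF receptor family member made in crypt base cells and a Wnt target. It rested on 41 to 74 counts in *Smad4*Vil-KO and 13 to 39 counts in double knockout libraries. In CPM these were 2.82, 4.40, 2.52 and 4.92 against 0.833, 1.71, 2.59, 1.10 and 3.02. Double knockout replicates 1, 2 and 4 lay below every *Smad4*Vil-KO library, and replicates 3 and 5 within their range. The log2 fold change was -0.98 ± 0.38 (95% interval -1.83 to -0.14), the largest negative estimate among the members, with an unadjusted p of 0.0266 and an adjusted p of 0.113. It stayed negative in all 19 alternative analyses, at -1.27 to -0.79, and passed in none (adjusted p 0.0517 to 0.280).

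*Sox9* (chr11:112782224-112787760, plus strand) encodes an HMG-box transcription factor of crypt base progenitors that Paneth cells need in order to form. It was measured at 79.4, 72.6, 77.0 and 71.1 CPM in *Smad4*Vil-KO IECs and fell to 51.5, 41.0, 58.8, 51.8 and 70.3 CPM in double knockouts. The genotypes did not overlap, although double knockout replicate 5 came within reach of the lowest control, and 8.87% of all genes tested had every double knockout library below every *Smad4*Vil-KO library. From 75.0 ± 3.85 to 54.7 ± 10.8 CPM (SD), the log2 fold change was -0.46 ± 0.13 (95% interval -0.75 to -0.17, adjusted p = 0.0439). The call was close to the threshold. The adjusted p was 0.00945 without double knockout replicate 5, and between 0.0554 and 0.114 when any 1 of the other 8 libraries was left out. With a term for Y-linked counts it was 0.150, and in the libraries without Y-linked counts 0.0121. Its log2 fold change stayed between -0.57 and -0.37.

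**Figure D2:**
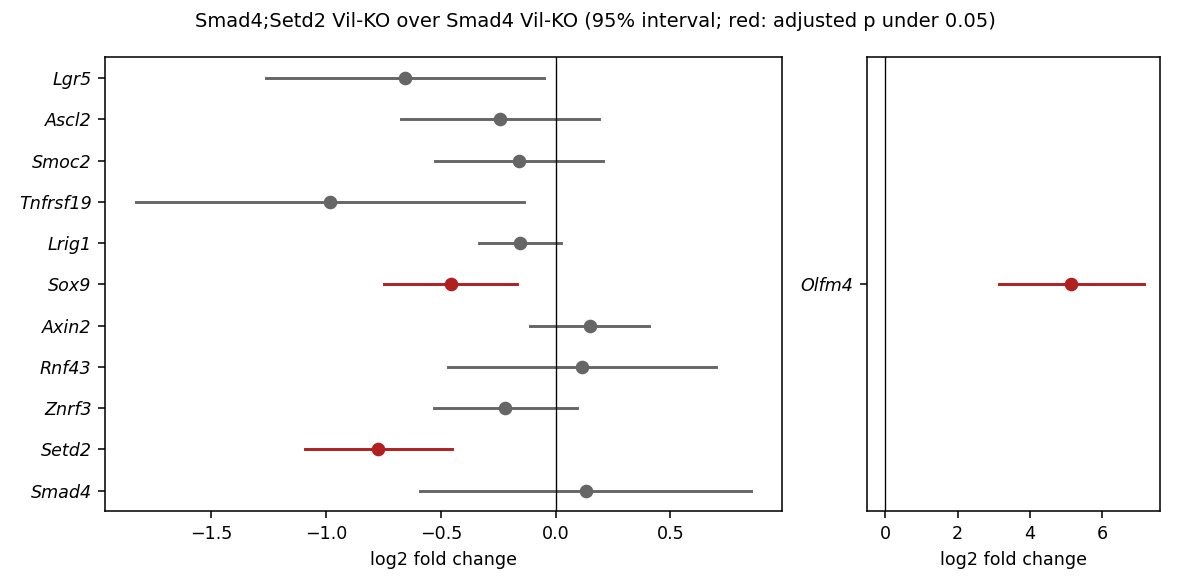
Log2 fold change of the 10 genes and of the targeted genes *Setd2* and *Smad4*, double knockout over *Smad4*Vil-KO (horizontal axis, 0 at the vertical line), with 95% intervals and red for an adjusted p under 0.05. *Sox9* at -0.46 is the only red point among the 9 colonic members, and *Olfm4* at 5.14 needed an axis of its own.

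None of the 3 Wnt feedback genes passed the test with all 9 libraries (edgeR, adjusted or unadjusted), and how they differ from the crypt base markers was not tested. *Axin2* (chr11:108920349-108950783, plus strand), which encodes a scaffold of the complex that destroys beta-catenin, showed 43.0, 34.9, 38.3 and 39.0 CPM in *Smad4*Vil-KO IECs. Double knockouts held 50.1, 43.8, 37.1, 35.9 and 48.1 CPM. The 3 highest of these values came from the 3 libraries with Y-linked counts. The log2 fold change was 0.15 ± 0.12 (95% interval -0.11 to 0.41, adjusted p = 0.416), and it was -0.083 without those libraries (adjusted p = 0.608). An antisense gene, *Gm11670*, shares 3.8% of the *Axin2* exon bases, and whether counting used strand is not given in the sources used here.

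*Rnf43* (chr11:87662722-87735539, plus strand) and *Znrf3* (chr11:5276324-5444847, minus strand) encode the ubiquitin ligases that clear Frizzled from the cell surface. *Rnf43* was the lowest member per kilobase in *Smad4*Vil-KO IECs, whereas *Tnfrsf19* was the lowest in double knockouts (0.391 against 0.429 CPM per kb). *Rnf43* rested on 30 to 51 counts a library. It held 2.12, 2.38, 1.90 and 4.05 CPM in *Smad4*Vil-KO and 2.44, 3.06, 2.80, 2.36 and 3.41 CPM in double knockout IECs, so that *Smad4*Vil-KO replicate 4 was above all others. Its log2 fold change of 0.11 ± 0.27 had a 95% interval of -0.47 to 0.70 (adjusted p = 0.802). *Znrf3* stood at 17.9, 15.0, 16.3 and 19.3 CPM against 16.3, 16.8, 12, 12.3 and 16.1 CPM. Double knockout replicates 3 and 4, the double knockouts without Y-linked counts, were the low ones. *Znrf3* had a log2 fold change of -0.22 ± 0.14 (95% interval -0.53 to 0.09, adjusted p = 0.316), and in the 6 libraries without Y-linked counts it was -0.49 (adjusted p = 0.0396).

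*Olfm4* (chr14:79984081-80023139, plus strand), which encodes the secreted glycoprotein olfactomedin 4, rose far more than any other member. In *Smad4*Vil-KO IECs it was close to the floor, with 8, 50, 14 and 20 counts or 0.513, 2.97, 0.860 and 1.59 CPM. In double knockouts there were 84, 217, 1355, 1241 and 675 counts, or 5.38, 15.4, 94.7, 97.6 and 52.3 CPM. Every double knockout lay above every *Smad4*Vil-KO mouse, a pattern seen upwards in 8.34% of all genes tested. Among double knockouts the level ran from the lowest in replicate 1 to the highest in replicate 4, and replicates 3 and 4 were the highest. This gave a log2 fold change of 5.14 ± 0.91 (95% interval 3.15 to 7.14), or 35.3-fold, with an adjusted p of 0.00568. It passed in all 18 alternative analyses in which it could be tested, at 4.70 to 6.0, and was 5.78 (adjusted p = 0.0140) without *Smad4*Vil-KO replicate 2. A long noncoding gene, *Gm6999*, shares 5.17% of its exon bases on the same strand.

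The rise of *Olfm4* came with other small-intestinal transcripts. Of 12 small-intestinal enterocyte genes tested, 9 rose and none fell, beside 6.76% of all genes called higher, with a median log2 fold change of 2.24. The list was compiled with earlier results of these data known, so this share is a description. Its summed level was 602 to 678 CPM in *Smad4*Vil-KO and 862 to 1862 CPM in double knockout libraries. *Sis*, sucrase-isomaltase of the brush border, went from 0.449, 7.43, 2.52 and 0.715 CPM to 95.8, 105, 211, 278 and 85.3 CPM (log2 fold change 5.75 ± 0.70, adjusted p = 0.000985), a change of 6.93 without *Smad4*Vil-KO replicate 2. *Enpep* (5.84), *Mttp* (4.53), *Slc10a2* (3.46) and *Fabp6* (2.84), which serve peptide digestion, lipoprotein assembly and bile acid uptake, also rose, as did *Anpep* (2.28), *Rbp2* (1.5) and *Treh* (1.45). *Gata4*, the transcription factor that specifies proximal small intestine, ranged from 0.159 to 0.321 CPM in *Smad4*Vil-KO and from 0.498 to 1.97 CPM in double knockout IECs (log2 fold change 2.20 ± 0.47, adjusted p = 0.0144). The order of the double knockouts differed between these genes. Replicates 3 and 4 were the highest for *Olfm4*, *Sis* and *Gata4*, whereas *Enpep* (91.5, 94.4, 41.4, 89.2 and 10.6 CPM) and *Slc10a2* (232, 295, 148, 270 and 76.6 CPM) were lower in replicate 3 than in replicates 1 and 2, where *Olfm4* was lowest. Of 6 Paneth cell genes tested, 4 had a positive and 2 a negative log2 fold change, and its median was 0.26. Of these genes 1 rose and none fell. The one that rose, *Defa24*, of a family of near-identical defensins between which counting could split reads, went from 0.449, 1.78, 6.08 and 7.70 CPM to 6.67, 26.8, 38.3, 84.1 and 19.6 CPM (log2 fold change 3.15 ± 0.79, adjusted p = 0.0262). Its adjusted p was between 0.0541 and 0.0738 without any 1 of *Smad4*Vil-KO replicates 1 to 3 or double knockout replicate 4, and 0.0565 in a robust fit. With 1 library left out, its log2 fold change ran from 2.54 to 3.65. *Lyz1*, the lysozyme of Paneth cells, had an estimate of the opposite sign (-1.67 ± 0.59, unadjusted p = 0.0155, adjusted p = 0.0827), *Ang4* one of -0.39, *Pla2g2a* one of 0.10, *Mmp7* one of 0.42 and *Itln1* one of 1.18 (adjusted p = 0.181). The part of these cell types in the *Olfm4* result was not tested, and the stretch of colon from which IECs were taken is not given in the sources used here.

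**Figure D3:**
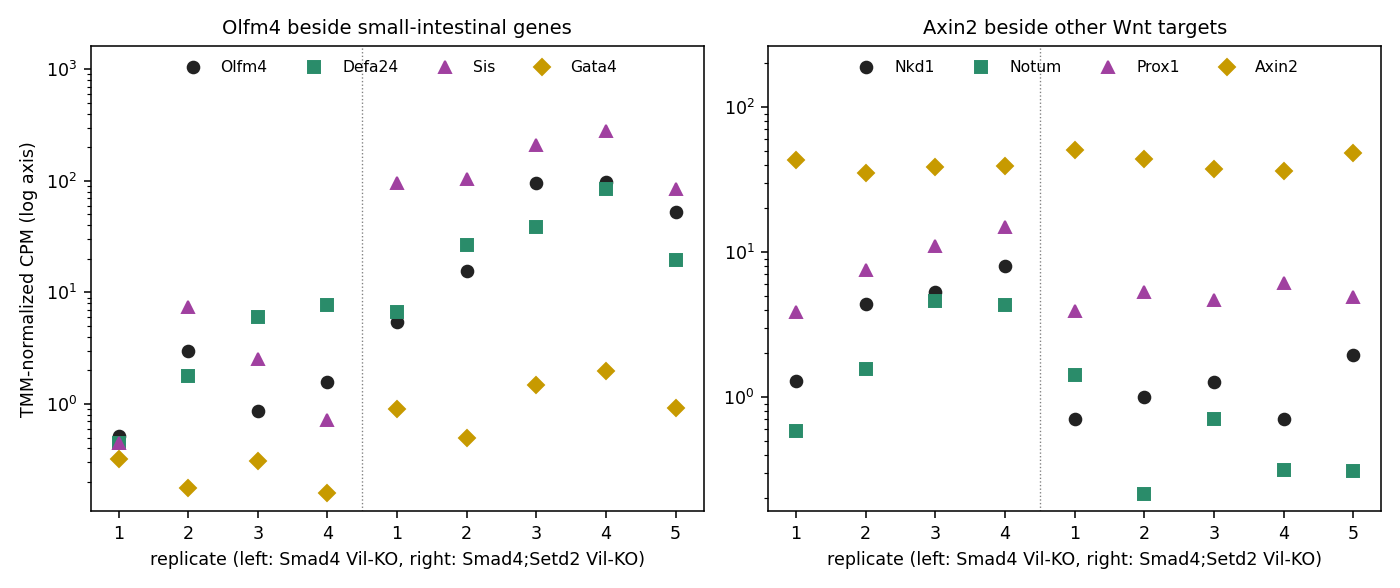
TMM-normalized CPM on log axes for every mouse, with *Olfm4* beside *Defa24*, *Sis* and *Gata4* (left panel) and *Axin2* beside *Nkd1*, *Notum* and *Prox1* (right panel). *Olfm4*, *Sis* and *Gata4* were higher in all 5 double knockouts, and the *Notum*, *Nkd1* and *Prox1* points of *Smad4*Vil-KO replicate 1 lie among or near those of the double knockouts.

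Relations among the members within genotypes were computed for *Lgr5* and *Axin2*, and none of the 17 passed the Benjamini-Hochberg adjustment (lowest adjusted p = 0.0826, exact permutation test). As deviations of log2 CPM from the genotype mean, *Lgr5* and *Smoc2* had a positive correlation over the 9 libraries (Pearson r = 0.82, exact permutation p within genotypes = 0.025; Spearman rho = 0.70, exact permutation p = 0.0639), with r = 0.84 without the 2 libraries farthest from the median of *Lgr5*. *Smad4*Vil-KO replicate 1 was the lowest of its genotype for both genes. *Axin2* had positive correlations with *Znrf3* (r = 0.86, exact permutation p = 0.0264; rho = 0.73, p = 0.0813; r = 0.82 without the 2 farthest) and with *Ascl2* (r = 0.71, exact permutation p = 0.00486; rho = 0.68, p = 0.0208; r = 0.77 without the 2 farthest). Its correlation with *Lgr5* was negative (r = -0.75, exact permutation p = 0.0285; rho = -0.68, p = 0.0507; r = -0.67 without the 2 farthest). So was that with *Olfm4* (r = -0.80, exact permutation p = 0.0410; rho = -0.80, p = 0.0615; r = -0.64 without the 2 farthest). Among double knockouts, the 3 libraries with Y-linked counts were the high ones for *Axin2* and *Znrf3* and the low ones for *Lgr5*, so the same correlations were recomputed in the 6 libraries without Y-linked counts, a step chosen after seeing the data. The pair with the lowest p there was *Lgr5* and *Lrig1*, with r = 0.92 (exact permutation p = 0.0208; rho = 0.94, p = 0.0208) beside r = 0.25 over the 9 libraries (exact permutation p = 0.533; rho = 0.35, p = 0.411). In the same 6 libraries, r was 0.96 for *Lgr5* and *Smoc2*, 0.67 for *Axin2* and *Znrf3*, 0.92 for *Axin2* and *Ascl2*, -0.63 for *Axin2* and *Lgr5* and -0.90 for *Axin2* and *Olfm4* (exact permutation p 0.0625, 0.313, 0.0625, 0.417 and 0.125, where 0.0208 is the smallest that 48 arrangements can give). None of the 17 passed the adjustment there (lowest adjusted p = 0.354, exact permutation test). Even the smallest possible p, 0.0208, could not pass over 17 relations unless many reached it, so this outcome decides nothing. The 3 libraries with Y-linked counts were too few for a value of their own.

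**Figure D4:**
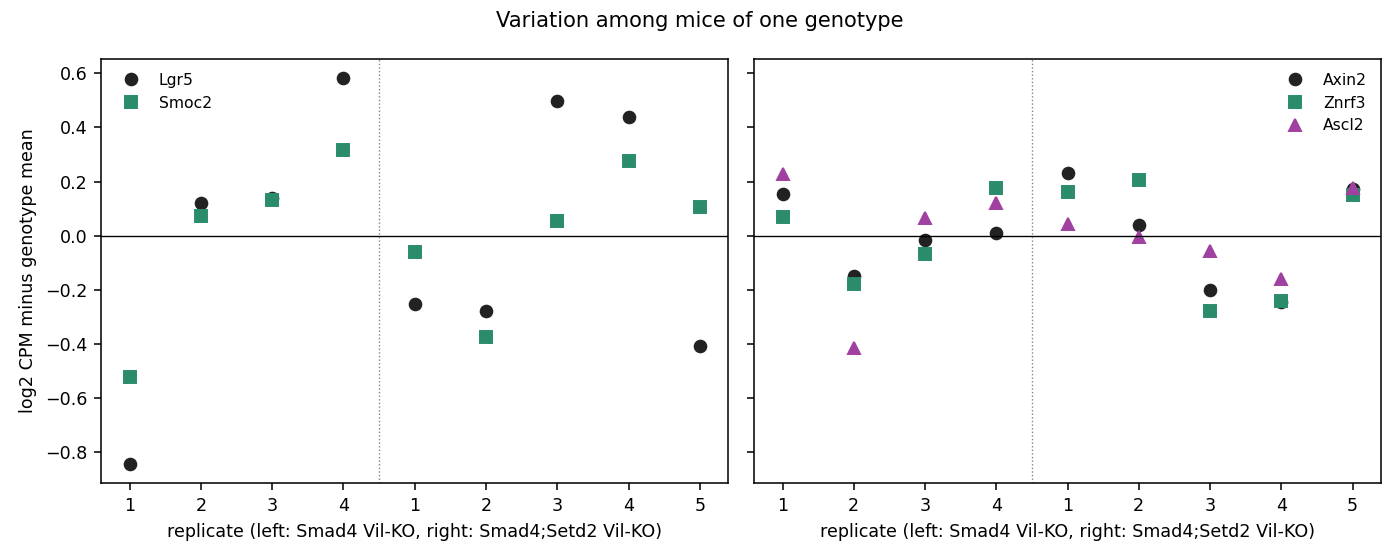
Deviation of log2 CPM from the genotype mean (vertical axis) for each mouse, *Lgr5* with *Smoc2* in the left panel and *Axin2* with *Znrf3* and *Ascl2* in the right panel. *Lgr5* and *Smoc2* are both lowest in *Smad4*Vil-KO replicate 1, and *Axin2* and *Znrf3* are both low in double knockout replicates 3 and 4.

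Ranked by this within-genotype correlation over 13680 genes that averaged 1 CPM or more, the genes most like *Lgr5* were *Cbx3-ps8* (r = 0.96), *Kif3a* (0.96), *Carf* (0.95), *Epha4* (0.95) and *Cbx6* (0.95). *Kif3a* encodes a kinesin motor subunit, *Epha4* an ephrin receptor and *Cbx6* a Polycomb subunit, while *Cbx3-ps8* is a pseudogene whose reads counting could share with its parent. *Smoc2* ranked 136 on this list. The genes most like *Axin2* were *Emp2* (0.98), *Ankrd35* (0.97), *Tnfrsf11a* (0.96), *Fam160a1* (0.96) and *Gdf15* (0.96). *Tnfrsf11a* encodes the RANK receptor and *Gdf15* a stress-induced secreted factor. *Znrf3* ranked 75 beside *Axin2* and *Ascl2* ranked 651. Values are over 9 libraries, and the highest of so many correlations are high through the ranking itself.

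Of 17 other genes of Lgr5+ stem cell signatures tested, 1 fell, near the 6.54% of all genes called lower, none rose and 11 had a negative estimate, with a median log2 fold change of -0.23. The gene that fell was *Shisa2*, an endoplasmic reticulum protein that holds back Wnt and FGF receptors, at 43.8, 28.5, 32.2 and 34.9 CPM in *Smad4*Vil-KO and 10.1, 25.3, 11.7, 10.1 and 26.6 CPM in double knockout IECs. The genotypes did not overlap, a pattern seen downwards in 8.87% of all genes tested (log2 fold change -1.06 ± 0.31, adjusted p = 0.0454). The call was lost when any 1 of *Smad4*Vil-KO replicates 1 to 4 or double knockout replicates 1, 3 and 4 was left out (adjusted p 0.0671 to 0.124), and in a robust fit (0.0575). The chloride transporter gene *Slc12a2*, an abundant crypt marker, had an estimate of 0.36 ± 0.12 (adjusted p = 0.0755). Of 4 markers of slow-cycling or reserve stem cells, 1 rose, beside 6.76% of all genes, and the other 3 had negative estimates, with a median log2 fold change of -0.28. *Hopx*, a homeodomain-only protein gene, rose from 37.9, 28.5, 32.4 and 37.9 CPM to 75.6, 60.8, 43.6, 49.8 and 45.2 CPM without overlap, as did 8.34% of all genes (log2 fold change 0.69 ± 0.17, adjusted p = 0.0236). Its adjusted p was 0.0698 without *Smad4*Vil-KO replicate 2, 0.0773 without replicate 3 and 0.164 with a term for Y-linked counts. *Bmi1*, a Polycomb gene of the same list, had an estimate of -0.36 ± 0.15 (adjusted p = 0.130), *Krt15*, a keratin gene, one of -0.74 ± 0.32 (adjusted p = 0.148) and *Tert*, the telomerase gene, one of -0.21 ± 0.20. *Bmi1* and *Krt15* were lower at an unadjusted p under 0.05 (edgeR), beside 15.3% of all genes.

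Among 13 other Wnt target and feedback genes tested, 1 fell, a share near the 6.54% of all genes called lower, none rose and the median log2 fold change was -0.13. *Nkd1*, whose product binds Dishevelled and blocks Wnt signalling, fell from 1.28, 4.34, 5.28 and 7.94 CPM to 0.705, 0.996, 1.26, 0.708 and 1.94 CPM. *Smad4*Vil-KO replicate 1 lay among the double knockouts, and the other 3 lay above all of them (log2 fold change -2.06 ± 0.48, adjusted p = 0.0192). The adjusted p was 0.0587 without *Smad4*Vil-KO replicate 3, 0.0575 without replicate 4, 0.0753 with a term for Y-linked counts and 0.0525 with limma-voom. *Notum*, which encodes a secreted enzyme that strips the lipid from Wnt ligands, was at 0.577, 1.55, 4.61 and 4.29 CPM against 1.41, 0.213, 0.699, 0.315 and 0.310 CPM and did not pass (log2 fold change -2.17 ± 0.66, adjusted p = 0.0518). *Prox1*, a homeobox gene activated by Wnt in colonic tumours, had 3.85, 7.55, 11.0 and 14.9 CPM against 3.91, 5.27, 4.68, 6.13 and 4.89 CPM (log2 fold change -0.90 ± 0.32, adjusted p = 0.0884). Again *Smad4*Vil-KO replicate 1 was the lowest control for both. *Dkk2*, a gene for a secreted Wnt modulator, had 1, 7, 8 and 12 counts in *Smad4*Vil-KO libraries and 0 in each double knockout library, a reading that still allows up to 3 counts each, and was too low to be tested. Neither of the Eph receptor targets passed. *Ephb2*, the receptor that positions cells along the crypt, had an estimate of 0.07 ± 0.07 (95% interval -0.09 to 0.23), and *Ephb3* one of -0.30 ± 0.14 (-0.61 to 0.02).

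Upstream of these targets, 1 of 17 genes of Wnt and R-spondin reception and beta-catenin handling fell and none rose, again near the 6.54% of all genes. *Dvl1*, a Dishevelled adaptor that relays the signal from Frizzled, showed 59.5, 68.3, 81.6 and 67.4 CPM in *Smad4*Vil-KO and 42.0, 41.8, 45.6, 43.1 and 42.7 CPM in double knockout IECs. The groups were well apart (log2 fold change -0.69 ± 0.09, adjusted p = 0.00154), and the call held in all 19 alternative analyses (adjusted p at most 0.0120). *Lgr4*, the R-spondin receptor of the whole crypt, had an estimate of -0.03 ± 0.08 (95% interval -0.20 to 0.15). *Ctnnb1*, which encodes beta-catenin, had one of -0.12 ± 0.10 (-0.35 to 0.11), and *Apc*, of the destruction complex, one of 0.22 ± 0.09 (0.02 to 0.43, adjusted p = 0.128). The median of the 17 was 0.07.

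**Figure D5:**
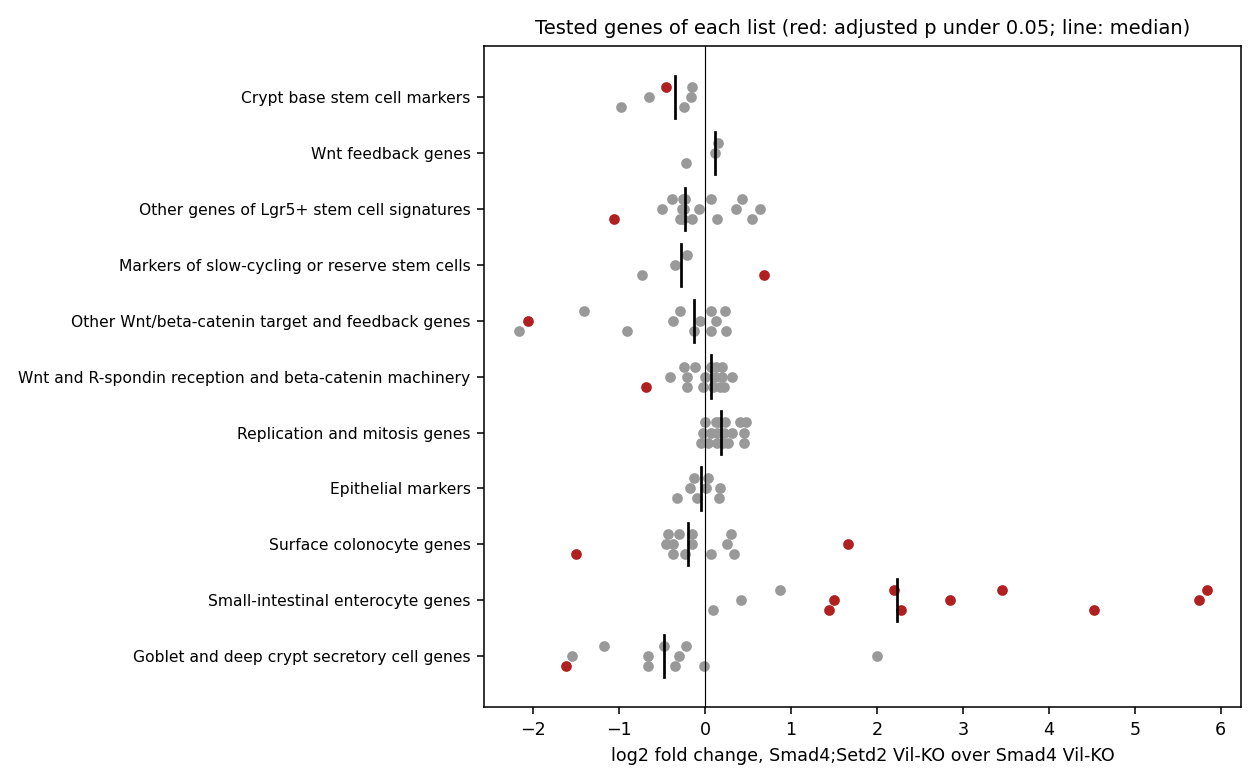
Log2 fold change, double knockout over *Smad4*Vil-KO (horizontal axis), of every tested gene of 11 lists, with red for an adjusted p under 0.05 and a line at each list's median. Crypt base markers have a median of -0.35 with 1 red point, and small-intestinal enterocyte genes a median of 2.24 with 9 red points.

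The cells above the stem cells were recorded alongside. Of 18 replication and mitosis genes none passed, 15 had a positive estimate and the median log2 fold change was 0.19. With edgeR 5 of the 18 had an unadjusted p under 0.05, all higher, beside 15.3% of all genes. DESeq2 called 2 and limma-voom 3 of the 18 higher, beside 10% and 9.61% of all genes. *Mki67*, the Ki-67 proliferation antigen, averaged 429 ± 44.6 and 495 ± 88.2 CPM (SD; adjusted p = 0.307). Of 14 surface colonocyte genes, *Guca2b* rose (log2 fold change 1.66, adjusted p = 0.00203) and *Slc37a2* fell, shares near the 6.76% and 6.54% of all genes. Of 11 goblet and deep crypt secretory genes 1 fell, beside 6.54% of all genes. *Muc2*, the main secreted mucin of the colon, fell from 6143 ± 1253 to 2003 ± 444 CPM (log2 fold change -1.62 ± 0.18, adjusted p = 0.000542). Of 6 tuft and enteroendocrine genes, 3 rose, beside 6.76% of all genes, namely *Chga*, *Chgb* and *Neurod1*, which belong to enteroendocrine cells. The tuft cell genes *Dclk1*, *Trpm5* and *Pou2f3* had estimates of -0.67, -0.80 and -0.29 and did not pass.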

How the data were processed

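Gene-level read counts of 9 IEC libraries were analysed, as whole numbers without normalization or pooling, deposited by the authors. HISAT2 2.0 and mm10 are named in the submitters' processing notes. The counting program and strand setting are not given in the sources used here. Of the 46095 symbols, 27 had turned into dates and stayed unnamed. Replicate mice differed beyond sampling noise (chi-square per gene at least 10.2).

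Genes passing filterByExpr (14593) were tested with edgeR 4.0.16 (R 4.3.3), TMM scaling and the quasi-likelihood test, and p-values were adjusted after Benjamini and Hochberg over all of them. SEs derive from the F statistic. The biological coefficient of variation was 21.2%. On counts simulated for this comparison (14350 genes), 164 of 200 changed genes (82%) were recovered with 8 false calls. This share is not split by size of change, so recovery at the sizes estimated for the members was not tested. Alternatives used DESeq2 1.42.0, limma 3.58.1 (voom), other scalings, filters and thresholds, left-out libraries and Y-linked counts. Exon lengths and positions come from GENCODE M21 (GRCm38).

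The members and gene lists were chosen with earlier results of these data known. Named are all members, the genes of other lists with an adjusted p under 0.05 (the 3 largest rises and falls where over 6 passed) and the 5 genes most like *Lgr5* and *Axin2*. Other named genes were chosen after their values were seen. P-values measure the spread between mice. All intervals cover replicate spread as modelled by edgeR.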

Additional observations from a re-analysis of the deposited data

Results flagged for a closer look

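Of 24 sets of values tested for a stray sample (the 10 members, *Setd2* and *Smad4* in each genotype), 1 held a value far from the rest. *Smad4* in *Smad4*Vil-KO replicate 1 was at 92.7 CPM, while the other 3 libraries of that genotype held 54.3 to 55.4 CPM, so that the gap to the nearest library was 0.970 of the group's whole range. Chance gives about 1 such value in 20 sets. The same library was the lowest of its genotype for *Lgr5*, *Smoc2*, *Lrig1* and *Olfm4* and the highest for *Ascl2*, *Sox9* and *Axin2*. Its goblet and deep crypt secretory genes summed to 32041 CPM, against 12426 to 15966 CPM in the other 3, and its Paneth cell genes to 1526 CPM against 396 to 457 CPM. The cause was not tested.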

How the results depend on the processing

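*Setd2*, *Olfm4*, *Dvl1*, *Muc2* and *Sis* passed in every alternative in which they could be tested, and *Lgr5*, *Ascl2*, *Smoc2*, *Tnfrsf19* and *Lrig1* stayed negative without passing in any of 19. Of the 9 members, 1 was called lower. With a term for Y-linked counts this was 0, in the libraries without Y-linked counts 2 (*Sox9* and *Znrf3*), with unadjusted p under 0.05 and a fold change over 1.5 also 2 (*Lgr5* and *Tnfrsf19*), and with 1 library left out 0 to 1. Over all genes, 986 were called higher and 955 lower. The counts of higher genes were 653 with the Y-linked term, 1553 at an adjusted p under 0.1 and 455 to 1380 with 1 library left out. Those of lower genes were 1525 with limma-voom, 632 with the Y-linked term, 1524 in the libraries without Y-linked counts, 1554 at an adjusted p under 0.1 and 392 to 1316 with 1 library left out. The log2 fold change of *Axin2* reversed to -0.088 with the Y-linked term and -0.083 without those libraries, that of *Rnf43* to -0.0072 with the term and -0.0083 without *Smad4*Vil-KO replicate 3 (range with 1 library left out -0.0083 to 0.39). That of *Smad4* (0.13) became -0.18 with limma-voom, -0.14 with the block, -0.71 with the Y-linked term, -0.70 without those libraries, -0.11 without double knockout replicate 2 and -0.011 without replicate 5 (range with 1 library left out -0.11 to 0.37). In each case the cause was not tested.

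Replicate numbers did not pair the mice (correlations of same-numbered deviations -0.10, -0.10, 0.02 and 0.09). With the number as a block, 787 genes were higher and 831 lower, *Sox9* alone of the 9 members passed and *Olfm4* was at 4.70. Depth limits *Ascl2*, *Rnf43*, *Tnfrsf19* and the *Smad4*Vil-KO level of *Olfm4*, which rest on fewer than 100 counts a library.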

Other observations

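Deep crypt secretory cells of the colon and Paneth cells of the small intestine sit between stem cells and feed them. *Kit*, a receptor marking deep crypt secretory cells, measured 94.6, 71.5, 71.1 and 69.5 CPM in *Smad4*Vil-KO and 28.3, 43.9, 48.5, 49.1 and 72.6 CPM in double knockout IECs. Only double knockout replicate 5, which also had the highest *Sox9* of its genotype, reached the *Smad4*Vil-KO range. The log2 fold change was -0.66 ± 0.21 (edgeR, adjusted p = 0.0653), and it ran from -0.87 to -0.52 over 19 alternatives and passed in 7 of them. *Atoh1*, the transcription factor of secretory progenitors, averaged 66.8 ± 8.38 and 54.1 ± 12.8 CPM (SD; log2 fold change -0.30 ± 0.16, adjusted p = 0.211). *Lyz1*, the lysozyme of Paneth cells, held 7.25, 49.4, 44.5 and 94.6 CPM against 16.2, 11.3, 14.9, 28.7 and 5.35 CPM. *Smad4*Vil-KO replicate 1 again stood among the double knockouts, and the log2 fold change of -1.67 ± 0.59 did not pass (adjusted p = 0.0827). Of the 6 Paneth cell genes tested, 4 had a positive estimate, among them *Defa24* and *Itln1*, and 2 a negative one.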
